A study of Mus musculus with 11 samples.

Results

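Retinoic acid is made inside cells from vitamin A (retinol) and acts on nuclear receptors that switch genes on or off. Retinol travels in blood bound to RBP4 and can enter cells through the receptor STRA6. Alcohol and retinol dehydrogenases oxidise it to retinal, and the retinal dehydrogenases ALDH1A1, ALDH1A2 and ALDH1A3 oxidise retinal to retinoic acid. RARA and RARB are receptors for the acid, and CYP26B1 breaks it down. In white fat this pathway is known to act on the formation of adipocytes and on lipid storage. The 8 genes Aldh1a1, Aldh1a2, Aldh1a3, Rbp4, Rara, Rarb, Stra6 and Cyp26b1 were chosen by symbol, and all 8 had a row among the 23507 gene rows of the count table.

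The counts came from single cells of the stromal vascular fraction (what remains of the tissue once adipocytes are removed) of perigonadal white adipose tissue (pgWAT), which lies beside the gonads. The table held 3261 cells, 1177 from 3 male mouse ids (1, 4 and 8) on 4 plates and 2084 from 4 female ids (2, 3, 5 and 6/7) on 7 plates. All mice carried the Tg(Pdgfrb-eGFP) reporter, which marks cells that express Pdgfrb, backcrossed to C57BL6/J, and no group was treated. Each plate held 1 sex, so the sex of a mouse and its plate cannot be told apart. Cells had been sorted by the reporter, by CD31 (an endothelial surface protein) and, in mouse 2, by DPP4 (a surface protein of part of the adipose stem cells). The female id 6/7 stands for 2 animals, and mouse 3 gave the shallowest cells, with a median of 393730 reads in genes against 465544 to 775072 in the other ids.

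Cell classes were rebuilt by clustering with all genes of the retinoid lists left out, so that the classes did not depend on the genes described, and are written "X-like". Adipose stem cells (ASC-like) made up 2250 cells (69.0%) and blood endothelial cells (EC-like) 561 (17.2%). The macrophage-like class held 137 cells and the mural-like class 101, that is 60 pericyte-like and 41 vascular smooth muscle cell (VSMC)-like cells. The defining ASC genes Pdgfra, Col1a1, Dcn and Lum summed to 6764 to 21120 CPM (counts scaled to a fixed total of gene reads) in the ASC-like cells of a mouse and to 8.042 to 45.03 CPM in EC-like cells. Some classes were impure. Most pericyte-like cells (85.0%) were rich in markers of another class, and so were 59.85% of macrophage-like cells. The macrophage-like cells carried leukocyte genes at 3277 and 6656 CPM although leukocytes had been gated out by CD45. The ASC-like cells were divided by marker scores within each mouse into ASC1a (800), ASC1b (684) and ASC2 (766), and 480 of them (21.33%) lay near a boundary. These subtypes are therefore ranges of a score.

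The genes that make retinoic acid are spread over the genome (GRCm38 coordinates, GENCODE vM21 annotation, all protein-coding). Aldh1a1 (ENSMUSG00000053279) lies on chromosome 19 from 20492715 to 20643465 and was detected in 61.58% of all cells with 166529 reads. Aldh1a2 (ENSMUSG00000013584, chromosome 9, 71215789 to 71296243) had 19037 reads in 10.49% of cells. Aldh1a3 (ENSMUSG00000015134, chromosome 7, 66390890 to 66427517) had the most reads of the 8 genes, 188246, in 59.86% of cells. The retinol carrier Rbp4 (ENSMUSG00000024990, chromosome 19, 38116629 to 38125281) had 40898 reads in 27.32% of cells. The receptor Rara (ENSMUSG00000037992, chromosome 11, 98927818 to 98974942) had 67549 reads in 55.47% of cells, and Rarb (ENSMUSG00000017491, chromosome 14, 16430839 to 16819156) 5922 reads in 7.08%. The retinol receptor Stra6 (ENSMUSG00000032327, chromosome 9, 58063788 to 58153996) was the rarest, with 1149 reads in 1.32% of cells. Cyp26b1 (ENSMUSG00000063415, chromosome 6, 84571414 to 84593908) had 3635 reads in 3.53% of cells.

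Rarb and Aldh1a1 share sequence with other genes. Of all 50-base windows of the Rarb transcripts, 30.8% also occur in transcripts of Top2b on the opposite strand, and the sources used here do not say whether strand was used in the counting. Of the Aldh1a1 windows, 3.06% occur in Aldh1a7, a neighbouring aldehyde dehydrogenase. For Aldh1a3 and Rara the largest such share was 1.11% and 0.184%, and Aldh1a2, Rbp4, Stra6 and Cyp26b1 shared none.

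Retinoic acid receptors bind pairs of short motifs in DNA, and Rarb is a textbook target of its own ligand. For this reason the promoter windows of the members were read. RefSeq windows of 300 bases (250 before and 50 after a transcription start, GRCm38.p6) were given for 7 of the 8 genes, 15 windows in all, and none for Aldh1a3. The motif AGGTCA, its form AGTTCA, the form GGGTCA and the form GGTTCA were searched on both strands as direct repeats with 1, 2 or 5 bases between them. Only Rarb held a match, a repeat with 5 bases between, from 53 to 37 bases before the start. Such a repeat occurs in 0.0974% of the 32851 windows of all genes, and the repeats with 1 or 2 bases between in 0.222% and 0.268%. The 100 bases around it, on the minus strand of chr14:16575477-16575576, are shown because this is the only member with a match, and capitals mark the match with its spacer.
Rarb: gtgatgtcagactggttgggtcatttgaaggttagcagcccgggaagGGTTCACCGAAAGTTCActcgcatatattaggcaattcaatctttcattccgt
The match describes letters in this window and was not tested for binding.

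Levels were first compared between genes within a class, per kilobase of exon (RPKM, medians over mice of the summed cells). In ASC-like cells the enzymes led, with Aldh1a3 at 21.8 RPKM (range 10.8 to 51.5 over 7 mouse ids) and Aldh1a1 at 18.0 (12.1 to 42.0). Rbp4 followed at 7.64 (3.11 to 14.8), Rara at 6.42 (2.39 to 9.42) and Aldh1a2 at 5.08 (0.00292 to 17.8). Rarb stood at 0.438 (0.0363 to 1.24), Stra6 at 0.0640 (0.00202 to 0.446) and Cyp26b1 at 0.0353 (0 to 0.224). The ranges of Aldh1a3 and Aldh1a1 overlapped, as did those of Rbp4, Rara and Aldh1a2, and those of Stra6 and Cyp26b1, so the order within each of these sets is not larger than the spread between mice. Ranges also overlapped between sets. Those of Rbp4 and Aldh1a2 reached those of Aldh1a3 and Aldh1a1, and that of Rarb overlapped those of Aldh1a2, Stra6 and Cyp26b1. The order given is therefore one of medians. In EC-like cells the order was another one, with Rbp4 first at 20.8 RPKM (5.65 to 50.4 over 5 ids), then Rara at 5.52 (0.745 to 12.8), Aldh1a1 at 2.55 (0.489 to 9.11) and Cyp26b1 at 1.21 (0.0246 to 1.54). Mural-like cells of mice 1 and 2 held Rbp4 at 0.737 and 11.7 RPKM, Rara at 5.94 and 5.16 and Aldh1a1 at 1.37 and 2.77. In macrophage-like cells of mice 1 and 5, Rara was highest, at 13.4 and 6.59 RPKM, and Aldh1a2 was second, at 3.06 and 3.86.

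**Figure D1:**
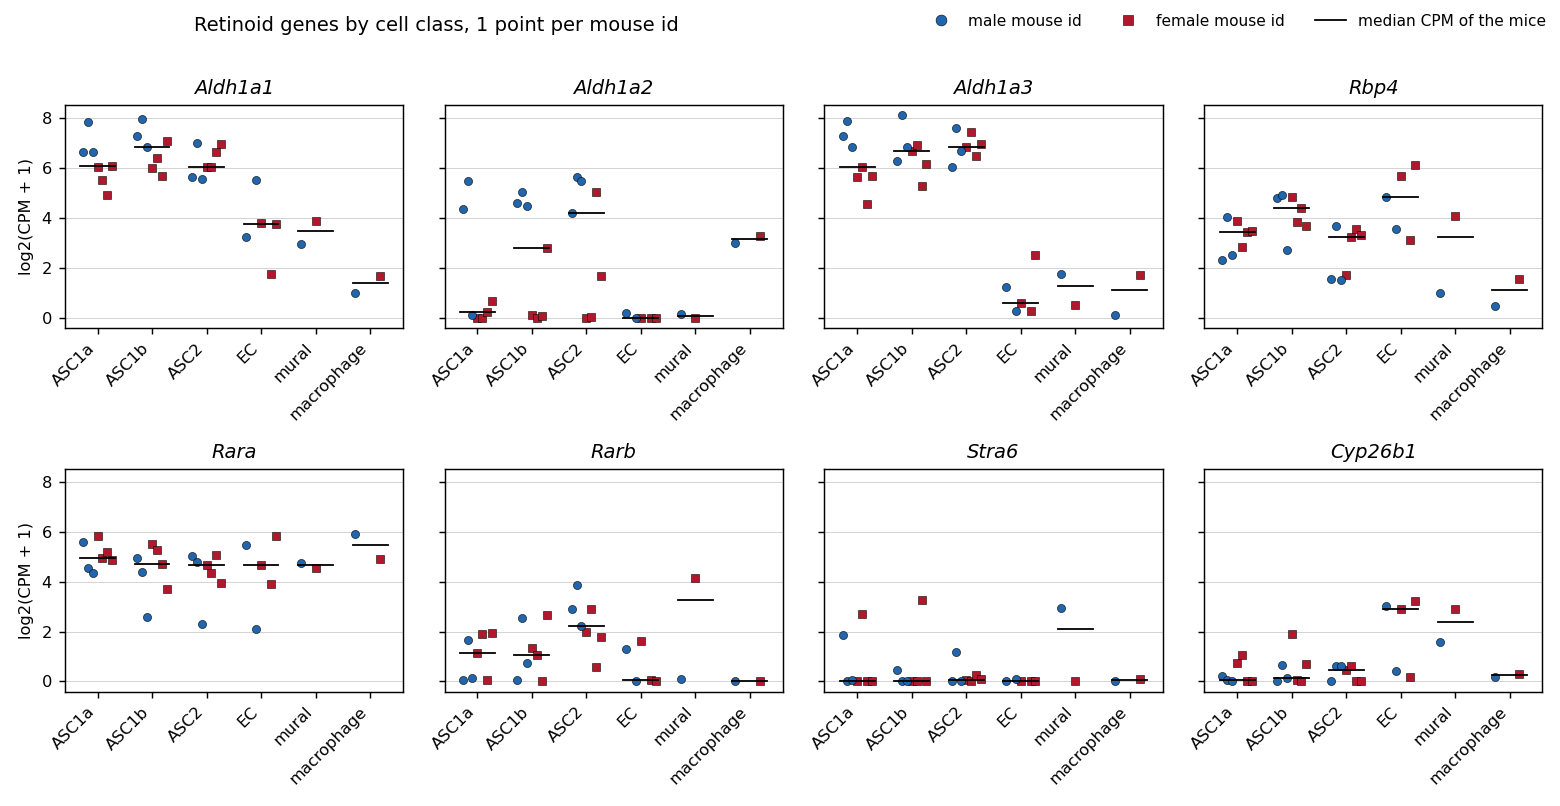
Level of each of the 8 genes in each cell class, as log2(CPM + 1) on the vertical axis, with 1 point per mouse id and a line at the median. Aldh1a1 and Aldh1a3 are high in every sum of the ASC1a, ASC1b and ASC2 subtypes and lower in the other classes shown of the same mouse. The EC-like Aldh1a1 value of mouse 8 (44.97 CPM) still lies above the ASC1a values of mice 3 and 5 (44.42 and 29.44 CPM). Rara is spread over all classes, and Stra6 and Cyp26b1 stay below 10 CPM in every sum shown.

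The first comparison asked whether these genes differed between male and female ASC-like cells. Counts were summed per mouse and tested with edgeR's quasi-likelihood test, and a gene was called at a Benjamini-Hochberg adjusted p below 0.05 with a fold change above 2.6. Of 6 members with enough reads to be tested, 2 were called, Aldh1a1 and Aldh1a3, both higher in males, where 2.23% of the 11821 genes tested were called in either direction and 1.55% higher in males. The third retinal dehydrogenase, Aldh1a2, separated the sexes without passing the test. Stra6 and Cyp26b1 fell under the count filter and were not tested. The median log2 fold change of the tested members was 1.27, against 0.04 over all genes.

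Aldh1a1 stood at 157.1, 174.0 and 149.4 scaled CPM (CPM after edgeR's TMM scaling) in the male mice 1, 4 and 8 and at 50.75, 47.14, 60.44 and 80.61 in the female ids 2, 3, 5 and 6/7. Every male was above every female. The mean was 160.2 ± 12.58 in males and 59.74 ± 15.01 in females (SD, n = 3 and 4), a log2 fold change of 1.42 (SE 0.264, edgeR adjusted p 0.0251). Aldh1a3 was at 163.9, 199.3 and 185.7 scaled CPM in the males and at 69.62, 89.20, 50.81 and 60.92 in the females. Again no values overlapped, as in 16.2% of all genes tested. Its means were 183.0 ± 17.86 and 67.64 ± 16.30 scaled CPM, with a log2 fold change of 1.44 (SE 0.266, edgeR adjusted p 0.0248).

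Both calls depended on the scaling. One row of the table, CT010467.1, took 52.3% and 47.0% of the ASC-like reads in the males 1 and 8 and 25.6% in male 4, against 24.1 to 45.8% in the females. As plain CPM, Aldh1a1 was at 96.55, 207.3 and 88.75 in the males and at 64.46, 63.65, 59.47 and 106.4 in the females, so the sexes overlapped through mouse 6/7. Aldh1a3 overlapped likewise, at 100.7, 237.6 and 110.3 CPM in males and 88.44, 120.5, 50 and 80.44 in females. With library totals in place of TMM the log2 fold changes were 0.83 and 0.82, while the median of all genes moved to -0.60, and neither gene was called. The calls over all genes, 183 higher and 81 lower in males, were then 87 higher and 224 lower. The Aldh1a1 call was also lost without mouse 2, 3, 4, 5 or 8 (log2 fold changes 1.34, 1.32, 1.37, 1.44 and 1.49) and the Aldh1a3 call without mouse 2, 4, 5, 6/7 or 8 (1.44, 1.38, 1.33, 1.38 and 1.44). The Aldh1a3 call was lost too with a minimum of 10 counts and with no filter (adjusted p 0.0616 and 0.0637). The direction held in each of these fits.

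The shares of cells with a read, pooled over mice, rested in part on male 4. After thinning each cell to 150000 reads, 85.2% of male and 58.9% of female ASC-like cells had an Aldh1a1 read, and 76.7% and 56.0% had an Aldh1a3 read. By mouse the Aldh1a1 share was 79.5%, 94.2% and 73.3% in males 1, 4 and 8 and 62.5%, 36.6%, 68.3% and 73.0% in females 2, 3, 5 and 6/7. The Aldh1a3 share was 61.1%, 94.5% and 60.2% in the males and 58.8%, 55.2%, 41.3% and 55.1% in the females. Every male was above every female, but many of these differences were within counting error. The share of all genes that separate the sexes in this way was not counted. For Aldh1a1 the 95% intervals of males 1 and 8 overlapped those of females 5 and 6/7, and that of male 8 also that of female 2. For Aldh1a3 the intervals of males 1 and 8 overlapped those of females 2, 3 and 6/7. Few cells fell out of this count, since only 10 cells of the table were shallower. For comparison, an Aldh1a1 read was found in 3.65% (95% exact binomial interval 1.20 to 8.31, counting error only) of macrophage-like cells and 6.63% (4.71 to 9.02) of EC-like cells at the same depth, and in 10.9% and 13.4% without thinning, at median depths of 661413 and 518151 reads. The pooled share in female ASC-like cells was thus well above those of macrophage-like and EC-like cells, and above the 13.9% of mural-like cells. All 19 epithelial-like cells had an Aldh1a1 read without thinning.

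Aldh1a2, which the embryo needs to make retinoic acid and which marks mesothelial cells in many organs, was at 32.49, 33.86 and 32.28 scaled CPM in males and at 0.02251, 0.004895, 11.68 and 2.071 in females. The males were close to each other on this scale, but stood at 19.97, 40.36 and 19.17 as plain CPM. The females ranged over more than 3 orders of size. The log2 fold change of 3.28 (SE 1.57) had an unadjusted p of 0.0632 and an adjusted p of 0.286 in edgeR's quasi-likelihood test, so the gene was not called. By subtype, male 8 held 0.1584 scaled CPM in ASC1a-like cells against 37.51 in ASC1b and 73.46 in ASC2, while males 1 and 4 held 28.16 to 41.57 in all 3 subtypes. The female mouse 5 held 0.1715, 0.05141 and 31.4 in ASC1a, ASC1b and ASC2.

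The Aldh1a2 reads sat in few cells. The 10 ASC-like cells with the most reads held 54.7% of all Aldh1a2 reads of the class, where the same figure for Aldh1a1 was 8.77%. At 10 or more reads, 64 of 2250 ASC-like cells (2.84%) were positive: 15 of mouse 1 (6.15% of its cells), 33 of mouse 4 (9.09%) and 5 of mouse 8 (3.11%) in males. Among females the counts were 1 of mouse 2, 0 of mouse 3, 5 of mouse 5 (4.81%) and 5 of mouse 6/7 (1.75%). The thinned share of cells with any read was 19.0% (16.3 to 22.0) in males and 0.811% (0.420 to 1.41) in females, with 9.43%, 30.9% and 6.83% in the 3 males and at most 4.81% in a female.

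**Figure D2:**
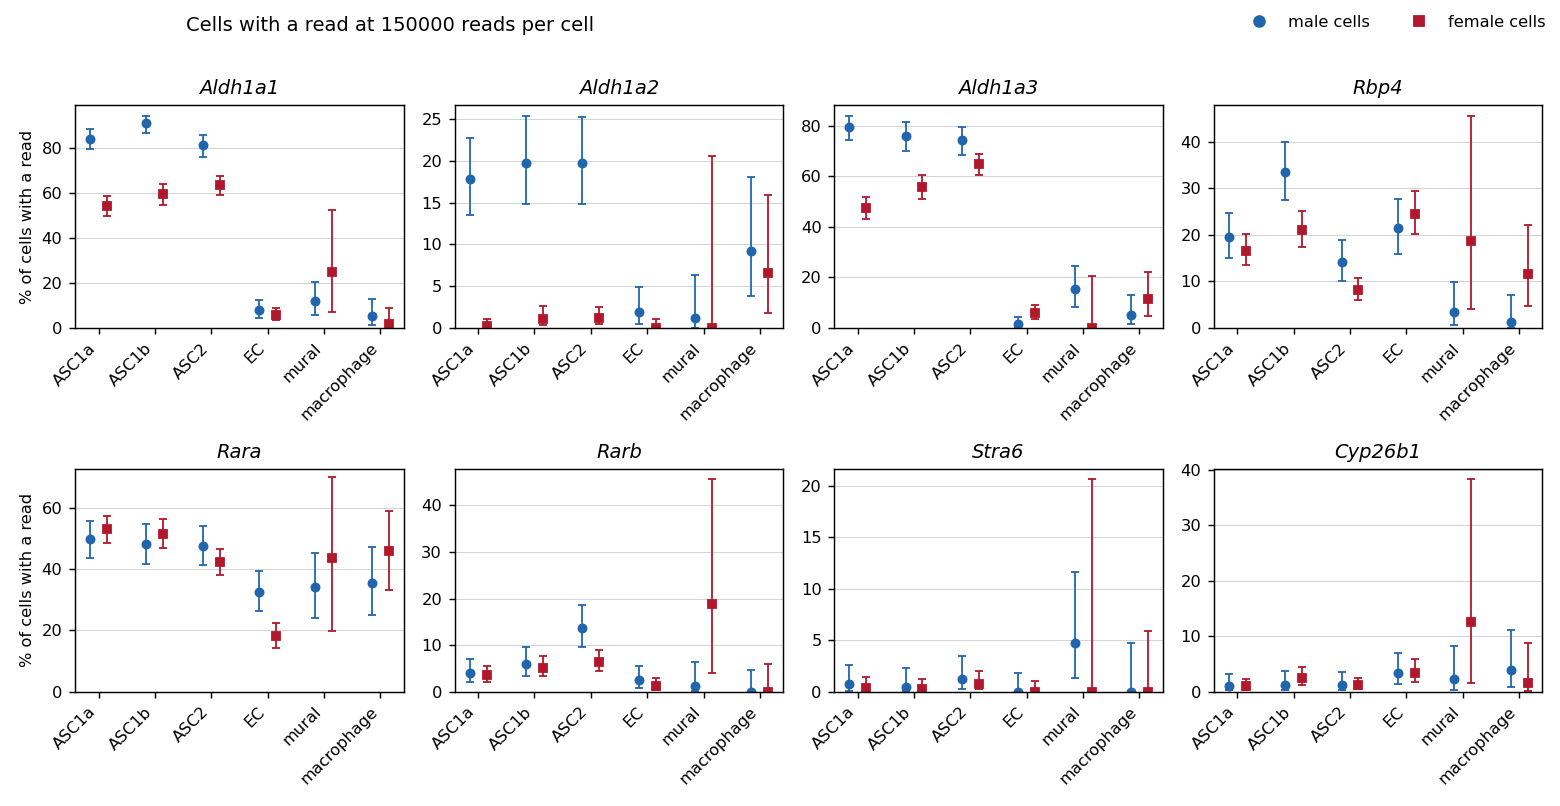
Percent of cells with at least 1 read of each gene after thinning every cell to 150000 reads, by class or ASC subtype and sex, each gene on its own scale, with exact 95% binomial intervals that cover counting error only. Aldh1a1 was read in 81.1 to 90.8% of male and 54.2 to 63.2% of female cells of the 3 ASC subtypes, and Aldh1a2 in 17.8 to 19.7% and 0.193 to 1.16%.

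Because Aldh1a2 is also a mesothelial gene, the 7 mesothelial markers Msln, Upk3b, Upk1b, Lrrn4, Krt19, Bnc1 and Muc16 were read beside it. Their summed level in ASC-like cells was 51.56, 23.67 and 0.02178 CPM in the males 1, 4 and 8 and 3.003, 0.5089, 156.9 and 3.856 CPM in the females 2, 3, 5 and 6/7. All 5 positive cells of the female mouse 5 had at least 2 of these markers at 10 or more reads, as did 2 of 15 in mouse 1 and none of the 33 in mouse 4 or the 5 in mouse 8. Leaving out the 43 ASC-like cells with such a marker, a step added after the values were seen, lowered Aldh1a2 from 11.49 to 0.07751 CPM in mouse 5 and from 19.97 to 9.702 CPM in mouse 1. It left 41.51 CPM in mouse 4 and 19.17 CPM in mouse 8, and 0.02943, 0.006642 and 2.069 CPM in mice 2, 3 and 6/7. The log2 fold change without these cells was 6.0 (SE 1.42, edgeR adjusted p 0.0554, against 0.0554 to 0.506 over all alternatives of this result), still not called.

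Neither the carrier nor the receptors were called between the sexes in ASC-like cells. Rbp4 lay between 7.029 and 16.64 scaled CPM in males and between 6.769 and 13.37 in females (log2 fold change 0.44, SE 0.371, edgeR adjusted p 0.540). Rara was at 59.17 scaled CPM in mouse 1 and at 14.24 to 32.36 in the other 6 ids, and its log2 fold change of 0.36 (adjusted p 0.698) turned to -0.46 without mouse 1. Rarb ran from 2.200 to 5.455 scaled CPM in males and from 0.1939 to 2.721 in females (1.11, adjusted p 0.428). Male and female mice overlapped in all 3.

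Other genes of the pathway moved in both directions between the sexes. Of 22 further retinoid genes tested, 3 were called, 2 higher and 1 lower in males. Adh1, an alcohol dehydrogenase that oxidises retinol, was lower in males, with means of 303.3 and 1072 scaled CPM (log2 fold change -1.82, SE 0.359, edgeR adjusted p 0.0328). Cyp1b1, a cytochrome P450 that can also oxidise retinol, was higher in males (243.2 and 64.07 scaled CPM, 1.92, adjusted p 0.0127). Aldh1a7 was at 2.69 to 13.6 scaled CPM in males and at 0 to 0.0569 in females (8.77, adjusted p 0.00436). It passed the count filter through the male sums alone (1569, 791 and 1111 reads in mice 1, 4 and 8, at most 15 in a female id). In EC-like cells it went the other way and was not called. It was there at 1.716 and 0 CPM in males 1 and 8 and at 16.86, 7.325 and 13.32 CPM in females 2, 5 and 6/7.

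The sex difference was then compared between the 3 subtypes of ASC-like cells, with the mouse as a block. The subtypes were set relative to each mouse, and whether they hold the same kinds of cell in both sexes was not tested. It differed for Aldh1a3, 1 of 6 members tested, where 0.0449% of 11137 genes (5 genes) were called. In ASC1a-like cells Aldh1a3 was at 244.3, 192.6 and 198.6 scaled CPM in males and at 36.04, 48.24, 23.37 and 38.08 in females. ASC1b-like cells held 137.1, 245.8 and 197.8 against 75.73, 86.00, 38.82 and 52.61, and ASC2-like cells 107.6, 152.6 and 170.9 against 94.04, 131.8, 84.99 and 89.44. The sexes overlapped in ASC2, and the ratios of the means were 5.81, 3.06 and 1.44 in ASC1a, ASC1b and ASC2. Relative to ASC1a, the male minus female log2 difference was 0.96 smaller in ASC1b and 2.09 smaller in ASC2 (F test over both terms, edgeR adjusted p 0.0327). The call was lost without any one mouse except mouse 4 (adjusted p 0.0839 to 0.160 in the 6 fits that lost it, 0.0448 without mouse 4), and with a minimum of 10 counts or no filter (0.0726 and 0.0685), while the second term kept its sign (-2.30 to -1.74).

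Aldh1a1 showed like values but did not pass. Its scaled CPM in ASC1a were 156.4, 188.8 and 172.6 in males and 47.49, 33.27, 30.41 and 50.84 in females, and in ASC1b 270.4, 223.9 and 196.8 against 47.27, 60.28, 51.10 and 101.7. In ASC2 they were 81.00, 100.4 and 79.02 against 53.63, 50.12, 94.76 and 91.22. Here too the sexes overlapped in ASC2, and the ratios of the means were 4.26, 3.54 and 1.20. How many of all genes separate the sexes within a subtype was not counted. The edgeR adjusted p was 0.0752, with a range of 3.01e-05 to 0.230 over the alternatives. The quasi-likelihood test called none of the other 4 members tested (adjusted p 0.691 to 0.947) and 0 of 22 further genes.

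**Figure D3:**
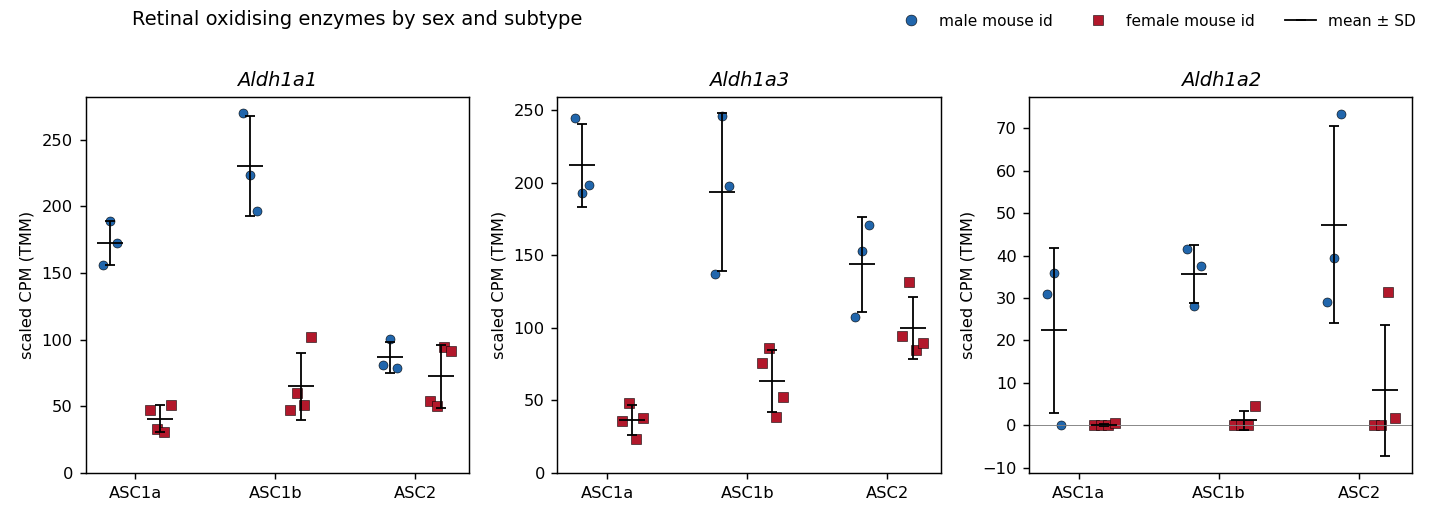
Scaled CPM (linear axes, one scale per gene) of Aldh1a1, Aldh1a3 and Aldh1a2 in the ASC1a-like, ASC1b-like and ASC2-like cells of male and female mice, with 1 point per mouse id and bars for the mean ± SD (n = 3 males and 4 females). For Aldh1a3 and Aldh1a1 the male points lie above all female points in ASC1a and ASC1b and overlap with them in ASC2. The share of all genes that do so was not counted. The ASC1a point of male 8 for Aldh1a2 lies at 0.1584, among the females.

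The subtypes were next compared within mice. Between ASC1b-like and ASC1a-like cells 0 of 6 members were called by edgeR, where 0.332% of 11137 genes were. The members with an unadjusted p below 0.05 were Rbp4 (log2 fold change 1.13, SE 0.388, adjusted p 0.220) and Rara (-0.65, SE 0.249, adjusted p 0.295). The likelihood ratio test and DESeq2 called 0 members as well. The quasi-likelihood test called 0 of the 22 further retinoid genes too.

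ASC2-like cells, scored within each mouse on markers that include Dpp4, had a call against ASC1a in a receptor and against ASC1b in the carrier. Against ASC1a, 1 of 6 members was called, Rarb, higher in ASC2, where 3.47% of genes were called and 1.72% were higher. Rarb passed the count filter only through the ASC2-like sums of mice 2 and 4 (628 and 956 reads). The largest ASC1a-like sum held 233 reads, so passing the filter was not independent of the direction called. Rarb was at 10.69, 10.67 and 6.299 scaled CPM in the ASC2-like cells of the males and at 2.434, 4.963, 0.4843 and 1.779 in those of the females. In ASC1a-like cells it was at 0.0815, 1.813 and 0.190 in the males and at 0.855, 2.073, 0.04288 and 2.131 in the females. The level was higher in ASC2 in 6 of 7 mouse ids, with mouse 6/7 as the exception. The log2 fold change was 3.05 (SE 0.876, edgeR adjusted p 0.0348). The call was lost without mouse 1, 5 or 8 (2.23, 2.91 and 2.72) and without mouse 2 or 4, where Rarb fell under the count filter. It was also lost with the plate as block (3.17, adjusted p 0.0791), with no replicate block (2.36, adjusted p 0.318), and with a minimum of 10 counts or no filter (0.0692 and 0.0706), and Rarb was not tested without cells near a boundary. These values rest on 92 ASC2-like and 49 ASC1a-like cells with a Rarb read. Top2b, the gene with shared sequence, had a median of 28.6 CPM in ASC2-like and 29.3 CPM in ASC1a-like cells.

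Rara had the opposite direction. Its log2 fold change in ASC2 against ASC1a was -0.81 with an edgeR adjusted p of 0.0489, under the fold limit and so not called. Against ASC1b, 1 of 6 members was called, Rbp4, lower in ASC2, where 3.11% of genes were called and 1.86% were lower. Rbp4 was at 47.05, 25.93 and 9.845 scaled CPM in the ASC1b-like cells of the males and at 20.68, 9.615, 20.41 and 8.850 in those of the females. In ASC2 it was at 3.274, 9.442 and 3.171 in males and 1.915, 6.513, 10.57 and 6.621 in females, lower in all 7 ids. The log2 fold change was -1.71 (SE 0.402, edgeR adjusted p 0.0112), and without mouse 1 it was -1.31 and fell under the fold limit. ASC1a was between them in 5 of 7 ids, at 6.316, 12.73 and 8.044 in males and 10.01, 4.668, 10.16 and 7.798 in females.

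Among the further retinoid genes, 2 of 22 were called in each comparison with ASC2. Adh1 was lower in ASC2 than in ASC1a (log2 fold change -1.62, edgeR adjusted p 7.65e-05) and than in ASC1b (-1.56, adjusted p 0.000155). Cyp2s1, a cytochrome P450 that can break down retinoic acid, was higher in ASC2 than in ASC1a (2.64, adjusted p 0.00291). Rdh10, which oxidises retinol to retinal, was higher in ASC2 than in ASC1b (1.83, adjusted p 0.0427).

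The DPP4 sort of mouse 2 divided its ASC-like cells without the scores, with 1 plate per sort and so with no test. These cells also entered the fits above, and Dpp4 is a marker of the ASC2 score, so the sort is not a separate check. The DPP4-positive plate held 379 ASC-like cells and the DPP4-negative plate 368, with Dpp4 at 177.7 and 1.72 CPM. Rbp4 was at 5.758 CPM in the positive and 22.54 CPM in the negative cells, with a read in 12.4% and 41.0% of cells. Rara was at 29.93 and 52.92 CPM and Rarb at 2.308 and 1.513 CPM. Aldh1a1 (60.91 and 68.23 CPM) and Aldh1a3 (92.05 and 84.61 CPM) were close to equal, and Aldh1a2 had 0 and 17 reads. Of the further genes, Adh1 was at 477.1 and 1625 CPM and Cyp2s1 at 50.80 and 5.310 CPM. The sample label of the positive plate names it reporter-positive and DPP4-positive, while its column names leave the reporter gate unclear.

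Blood endothelial cells were compared with the ASC-like cells of the same 5 mouse ids (1 and 8 male, 2, 5 and 6/7 female). In mice 1 and 2 nearly all EC-like cells came from other plates and sorts than the ASC-like cells. In mouse 6/7 most ASC-like cells were on another plate than the EC-like cells. The mouse block does not remove this, so class and plate cannot be told apart in these mice. All 3 retinal dehydrogenases were lower in EC-like cells, so 3 of 7 members tested were called, where 22.7% of 12207 genes were called and 14% were lower. Aldh1a3 and Aldh1a2 passed the count filter only through ASC-like sums, since their largest EC-like sums held 239 and 13 reads. For both, passing the filter was not independent of the direction called. Aldh1a1 was at 149.2 and 149.3 scaled CPM in the ASC-like cells of the males and 48.65, 56.93 and 77.74 in those of the females, and at 11.11 and 57.92 against 9.184, 2.378 and 8.140 in EC-like cells. It was lower in EC-like cells in 5 of 5 mice (log2 fold change -3.07, SE 0.492, edgeR adjusted p 0.00288), with mouse 8 much the highest. Aldh1a3 was at 155.6, 185.5, 66.74, 47.86 and 58.76 scaled CPM in the ASC-like cells of mice 1, 8, 2, 5 and 6/7 and at 1.743, 0.2617, 0.3798, 0.2161 and 3.035 in their EC-like cells (-6.93, SE 0.778, adjusted p 0.000535). Aldh1a2 had 14 reads in all 561 EC-like cells, 9 of which held one, and a log2 fold change of -8.10 (SE 1.37, adjusted p 0.00367). With the plate in place of the mouse as the block that call was lost (-10.95, adjusted p 0.0502).

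Rbp4 and Cyp26b1 had higher values in EC-like cells without passing the test. Rbp4 was at 36.49, 13.96, 36.04, 7.478 and 43.81 scaled CPM in the EC-like cells of mice 1, 8, 2, 5 and 6/7 and at 15.03, 7.023, 10.50, 12.59 and 7.493 in their ASC-like cells, higher in 4 of 5 mice. Its log2 fold change was 1.20 (SE 0.501, edgeR adjusted p 0.124), and without mouse 5 it was 1.69 and was called (adjusted p over the alternatives 0.0207 to 0.568). Rbp4 is also made by adipocytes, and the 10 adipocyte markers summed to 1442 to 3682 CPM in EC-like cells and to 31.12 to 64.33 CPM in ASC-like cells; their part in the Rbp4 values was not tested.

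Cyp26b1, the enzyme that breaks retinoic acid down, was at 9.197, 0.4361, 4.656, 0.1297 and 5.321 scaled CPM in EC-like cells and at 0 to 0.903 in ASC-like cells of the same mice. The log2 fold change was 4.05 (SE 1.29, edgeR adjusted p 0.0545), just above the threshold, and the gene was called by the likelihood ratio test and by DESeq2. Its EC-like reads came from 39 cells, of which the top 10 held 95.8% and 1 cell 26.8%. Thinned to a common depth, 3.41% (2.06 to 5.27) of EC-like and 1.38% (0.939 to 1.95) of ASC-like cells had a read. Rara (-0.53, adjusted p 0.492) and Rarb (-2.92, adjusted p 0.266) were not called, and Stra6 had 1 read in EC-like cells.

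Of the further retinoid genes, 11 of 25 were called between EC-like and ASC-like cells, 5 higher and 6 lower. Those with large changes included Rbp7 (log2 fold change 10.63), a retinol binding protein of capillary endothelium, Cyp1b1 (-10.00), Rarres1 (7.97), which is named for its induction by a retinoid, and the aldehyde oxidase Aox3 (-7.36). The largest edgeR adjusted p among these was 0.0265, that of Rarres1. Rbp7 was at a median of 0.03629 CPM in ASC-like and 103.1 CPM in EC-like cells. With 131 reads in all ASC-like cells, it passed the count filter through EC-like sums alone.

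**Figure D4:**
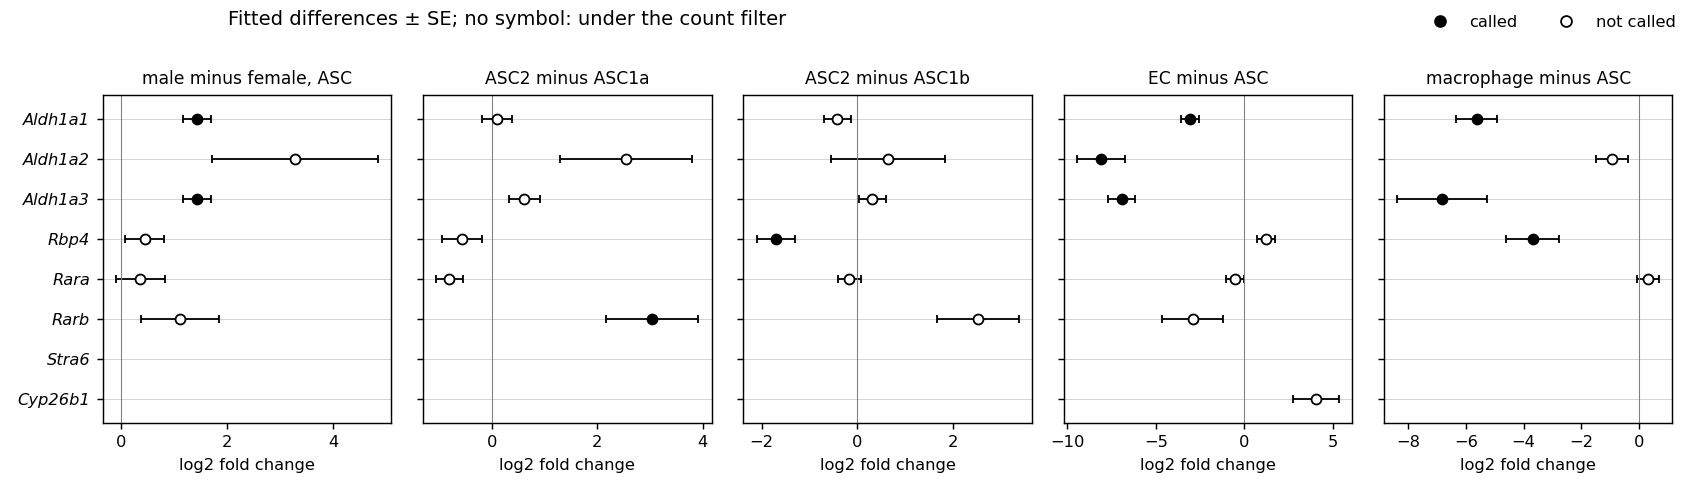
Log2 fold change (± SE) of each member tested in 5 comparisons (male minus female in ASC, ASC2 minus ASC1a, ASC2 minus ASC1b, EC minus ASC and macrophage minus ASC, each with its own axis), with filled symbols for called genes and no symbol for genes with too few reads. Aldh1a1 and Aldh1a3 lie to the right of 0 in the sex comparison (1.42 and 1.44) and to the left of it in EC-like and macrophage-like against ASC-like cells.

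Within EC-like cells the sexes could be compared in 2 male and 3 female ids. Of 4 members tested, 0 were called, where 0.0493% of 8116 genes were. Aldh1a1 was at 12.01 and 62.73 scaled CPM in males and at 9.946, 2.566 and 8.558 in females. The sexes did not overlap, as for 26.6% of genes, and the higher of the males, mouse 8, had 29 EC-like cells. The log2 fold change was 2.41 (SE 0.884) with an unadjusted p of 0.0255 and an edgeR adjusted p of 0.647. The other 3 members, Rbp4, Rara and Cyp26b1, had log2 fold changes of -0.18, 0.47 and 0.54 and adjusted p values of 0.913 to 0.967. The test called 0 of 15 further retinoid genes too.

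Mural-like cells, which wrap small vessels, could be compared with ASC-like cells in 2 mice, which left 1 residual degree of freedom in edgeR's quasi-likelihood test. It called 0 of 4 members and 0 of 9701 genes (0.0%), with 1373 genes at an unadjusted p below 0.05. Aldh1a1 was at 134.1 and 46.74 scaled CPM in the ASC-like cells of mice 1 and 2 and at 10.93 and 8.946 in their mural-like cells (log2 fold change -3.00, adjusted p 0.135). Aldh1a3 was at 139.9 and 64.12 against 3.880 and 0.2796 (-6.38, adjusted p 0.107). Both were lower in mural-like cells in both mice, and the likelihood ratio test and DESeq2 called both, where these tools called 10.5% and 14.3% of genes. Both genes passed the count filter only through ASC-like sums. Their mural-like sums held 341 and 224 reads of Aldh1a1 and 121 and 7 of Aldh1a3, so the filter was not independent of the direction. Rbp4 (-1.52) and Rara (-0.64) had adjusted p values of 0.653 and 0.634. Of 22 further retinoid genes, 0 were called by the quasi-likelihood test. One cell held 87.5% of the 336 Stra6 reads of the class, nearly all from mouse 1, and another cell held 88.1% of the 312 Rarb reads, which came mostly from mouse 2. The EC markers summed to 393.2 and 4783 CPM in these mural-like cells, and their part in the values was not tested. In mouse 2 the mural-like cells came from another plate and sort than the ASC-like cells, so class and plate cannot be told apart there.

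Macrophage-like cells, compared in mice 1 and 5, were lower than ASC-like cells in 3 of 5 members tested, where 25.2% of 8036 genes were called and 13.3% were lower. This fit too left 1 residual degree of freedom, and on simulated data it called 24 unchanged genes. The called members passed the count filter only through ASC-like sums, so passing it was not independent of the direction called. Their macrophage-like sums held 64 and 79 reads of Aldh1a1, 6 and 80 of Aldh1a3 and 24 and 68 of Rbp4. In mouse 1 nearly all macrophage-like cells came from another plate and sort than the ASC-like cells, so class and plate cannot be told apart there. Aldh1a1 was at 128.5 and 45.94 scaled CPM in ASC-like and at 1.234 and 1.916 in macrophage-like cells (log2 fold change -5.64, SE 0.703, edgeR adjusted p 0.00203). Aldh1a3 went from 134.1 and 38.62 to 0.1157 and 1.940 (-6.84, SE 1.55, adjusted p 0.0221), and Rbp4 from 12.95 and 10.16 to 0.4627 and 1.649 (-3.69, SE 0.918, adjusted p 0.0308). The calls of Aldh1a3 and Rbp4 were lost without the macrophage-like cells rich in other markers (-6.42 and -4.53, adjusted p 0.119 and 0.0956) and with a minimum of 10 counts or no filter, and that of Aldh1a3 also with classes from each cell's markers (-6.92, adjusted p 0.0982).

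Aldh1a2 and Rara were tested and not called between macrophage-like and ASC-like cells. Aldh1a2 was at 26.58 and 8.879 scaled CPM in ASC-like and 8.502 and 7.566 in macrophage-like cells (log2 fold change -0.94, SE 0.556, edgeR adjusted p 0.279). Mouse 1 was lower in macrophage-like cells and mouse 5 close to equal, but the ASC-like level of mouse 5 was 0.07751 CPM without cells that carried a mesothelial marker, against 8.741 CPM in its macrophage-like cells. Of the 753 Aldh1a2 reads of this class, 98.5% came from 10 cells. The mesothelial markers summed to 4.297 and 0.7284 CPM there. Rara was at 48.41 and 24.11 against 71.87 and 24.88 scaled CPM (0.31, SE 0.391, adjusted p 0.620). Rarb had 0 reads in 137 macrophage-like cells, which allows a share of cells with a read of up to 2.66% and sets no limit on cells that express the gene. Of the further genes, 9 of 19 were called, 8 lower and 1 higher. Among them Cyp1b1 (-9.74), Rarres2 (-7.58), Adh1 (-6.77) and Cyp2s1 (-6.41) were lower, and the gene that was higher was Dhrs3 (2.38, adjusted p 0.00741), which reduces retinal back to retinol.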

How the data were processed

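Smart-seq2 libraries of single cells were made by the authors in plates. Per the labels and the study's methods, reads were aligned to mm10 with STAR, quantified with Salmon and gathered per gene with tximport. The deposited values are whole-number counts per gene and cell, and how estimates became whole numbers, and the tool versions, are not given in the sources used here. The table held 23507 gene rows, of which 23461 matched GENCODE vM21, and 72 rows of ERCC spike-ins, which were left out of totals and tests. Reads per cell ranged from 149931 to 3548334, with a median of 616939 in genes.

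Cells were clustered in Seurat 5.3.0 (R 4.3.3) without the retinoid genes and named from marker lists, and no doublet caller was run. ASC subtypes were set by marker scores within each mouse. Counts were summed per mouse id and class where at least 10 cells were present. Genes with more than 600 counts in at least 2 sums were tested with edgeR 4.0.16 (TMM scaling, quasi-likelihood test, Benjamini-Hochberg adjustment), with the mouse as a block where classes or subtypes of the same mice were compared. Groups of the sex comparisons were different animals. A call needed an adjusted p below 0.05 and a fold change above 2.6. The tests were run on simulated data with 200 genes changed 8-fold. Of these, 93% were called for the sex comparison in ASC-like cells (11373 genes) and 31.5% for that in EC-like cells (6970 genes). For mural-like and macrophage-like against ASC-like cells, 28.5% (8177 genes) and 87% (7127 genes) were called. Unchanged genes that were called numbered 6, 5, 23 and 24, in this order. Alternatives were edgeR's likelihood ratio test, DESeq2 1.42.0, other scalings, count filters, class definitions and blocks, and leaving out each mouse.

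RPKM and CPM were computed from the counts. All 8 members are described, and further retinoid genes are named where called, at most the 5 with the largest change. One further gene is not reported here. The members and lists were chosen with earlier results of these data known. Intervals are exact binomial intervals at 95%.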

Additional observations from a re-analysis of the deposited data

Results flagged for a closer look

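The sex difference of Aldh1a3 differed between the ASC subtypes (edgeR quasi-likelihood F test with mouse as block, adjusted p 0.0327). It was larger in ASC1a-like than in ASC2-like cells, and the call was lost when any single mouse other than mouse 4 was left out, and with a minimum of 10 counts or no filter.

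Among 38 groups of 4 or more mice tested for a value far from the others, 1 stood out, where chance gives about 1 in 20. This was Aldh1a2 in EC-like cells, at 0.1798 scaled CPM in mouse 1 and at 0 to 0.004268 in the other 4 ids. The whole class held 14 Aldh1a2 reads.

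Some members were read at 10 CPM or more in cells that entered no comparison. Aldh1a1 was at 251.5 CPM in the 19 epithelial-like cells, which all had a read. In 121 unnamed cells that carried adipocyte genes, Rbp4 was at 114.4 CPM and Aldh1a1 at 22.29 CPM. In 50 unnamed cells with a high share of mitochondrial reads, Aldh1a3 was at 76.79 CPM and Aldh1a1 at 14.80 CPM. The 22 lymphatic endothelial (LEC-like) cells held Rara at 17.76 CPM and Rarb at 23.28 CPM, the latter from 316 reads in 3 cells.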

How the results depend on the processing

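Across 50 fold changes of members and 749 alternative fits, 672 kept their direction and side of the threshold, 38 lost a call, 18 gained one and 21 turned in sign. The cause was not tested unless named. The number of members called between the sexes in ASC-like cells (2) was 0 with library totals, 1 with a minimum of 10 counts and with no filter, and 0 to 2 with 1 mouse left out. For ASC2 against ASC1a (1) it was 0 with a minimum of 10 counts, with no filter, without cells near a boundary, with the plate as block and with no replicate block, and 0 to 1 with 1 mouse left out. With no replicate block, Rarb was at 2.36 there (adjusted p 0.318), and no other member lost a call without the block in any comparison. For ASC2 against ASC1b (1) it was 2 under the likelihood ratio test and DESeq2 and 0 to 2 with 1 mouse left out. For the sex difference across subtypes (1) it was 2 under the likelihood ratio test, DESeq2, without cells rich in other markers, near a boundary or with a mesothelial marker, 0 with a minimum of 10 counts or no filter, and 0 to 1 with 1 mouse left out. For mural-like cells (0) it was 2 under the likelihood ratio test and DESeq2, and for macrophage-like cells (3) 1 with a minimum of 10 counts, with no filter and without cells rich in other markers. Fold changes that turned in sign had not been called. In the sex difference of ASC-like cells, Rbp4 went to -0.048 with library totals and -0.089 with classes from each cell's markers, and Rara to -0.37 with library totals and -0.46 to 0.68 with 1 mouse left out. In EC-like cells, Rara went to -0.43 and Cyp26b1 to -0.43 with library totals, and with 1 mouse left out Rbp4 ranged from -1.04 to 0.35 and Rara from -2.39 to 1.36. Aldh1a1 in ASC2 against ASC1a went to -0.015 with classes from each cell's markers, -0.31 with no replicate block and -0.0056 without cells with a mesothelial marker, and ranged from -0.19 to 0.29 with 1 mouse left out. Aldh1a2 in ASC2 against ASC1b went to -0.90 without cells with a mesothelial marker and ranged from -0.41 to 1.27 with 1 mouse left out, and Aldh1a3 there to -0.0044 with no replicate block. Across subtypes the sex term of Aldh1a2 went to 2.74 without cells with a mesothelial marker, that of Rbp4 to 0.013 without cells rich in other markers, and that of Rara to 0.24 without cells near a boundary and -0.75 to 0.54 with 1 mouse left out. Over all genes, the 264 calls between the sexes in ASC-like cells became 552 under the likelihood ratio test, 594 under DESeq2, 169 and 167 with the lower filters and 92 to 344 with 1 mouse left out. The 4 calls in EC-like cells became 54, 104 and, with RLE scaling, 1, 0 with the lower filters and 0 to 619 with 1 mouse left out. The 37 calls of ASC1b against ASC1a became 82, 113, 68 without cells near a boundary, 1 with no replicate block and as few as 18 with 1 mouse left out. With no replicate block the 387 and 346 calls of ASC2 became 187 and 129. The 5 calls across subtypes became 78, 70, 3 with library totals, 0 with the lower filters and 0 to 7 with 1 mouse left out. The 2774 calls of EC-like cells became 1356 with the plate as block, the 0 calls of mural-like cells 1018, 1387 and, with library totals, 44, and the 2027 calls of macrophage-like cells 1097 without cells rich in other markers. Leaving out a mouse and the plate block were not run for mural-like and macrophage-like cells, nor was the removal of cells rich in other markers for mural-like cells, since 2 mice hold them. The filter of 600 counts kept Stra6 out of every comparison and Cyp26b1 out of all but those with EC-like cells. With a minimum of 10 counts or no filter, neither was called where tested.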

Other observations

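Aldh1a1 and Aldh1a3 were often read in the same ASC-like cell. At 10 or more reads of each, 36.9%, 52.6% and 34.8% of the ASC-like cells of the males 1, 4 and 8 held both, and 26.2%, 8.09%, 26.0% and 27.4% of those of the females 2, 3, 5 and 6/7. Cells with none of the 3 retinal dehydrogenases at this level made up 20.5%, 12.4% and 16.8% in the males and 27.3%, 52.9%, 31.7% and 24.9% in the females, with the shallowest mouse, 3, at the top. Depth was not equalised here.

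Over 30 sums of a mouse and a class, the levels of 12377 genes were compared with those of the members on the log2(CPM + 1) scale, as a description. Sums of 1 mouse share their animal and plate. Aldh1a3 was closest to Osr1 (Pearson r 0.977), Scara5 (0.977) and Lrrc17 (0.966), and Aldh1a1 to Ccdc80 (0.917), Htra3 (0.910) and Boc (0.904). Aldh1a2 was closest to Nkain4 (0.825), Nt5e (0.788) and Sult1e1 (0.755), and Rbp4 to Plpp1 (0.804), Vamp5 (0.782) and Bambi (0.762). The nearest genes to Rara were Rnf141 (0.774), Ptges3-ps (0.770) and Prrc2a (0.750), and to Rarb Ackr1 (0.765), Slc6a13 (0.741) and Setd4 (0.728). Stra6 and Cyp26b1 did not reach 10 CPM in any of these sums and were not compared.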
